A study of Mus musculus with 9 samples.

Results

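The transcripts of the mitochondrial genome were examined in CD4+ T cells with and without Cre recombinase against Kdm6a, the X-linked gene of a histone H3 lysine 27 demethylase. The members were all genes of the count table whose mouse symbol starts with mt-, which gave 37 genes of 39017 Ensembl gene IDs. They were 13 protein-coding genes, 2 ribosomal RNA (rRNA) genes and 22 transfer RNA (tRNA) genes, and the classes are described apart. The rule reads gene symbols and no measured value, though it was set with earlier results of these data known.

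RNA-seq counts were available for 9 samples of lymph node CD4+ T cells (helper T lymphocytes) from male C57BL/6 mice. All 9 carried a floxed Kdm6a allele over the Y chromosome. The 5 WT samples (replicates 1, 3, 4, 5 and 9) were CD4-Cre (-/-), and the 4 cKO samples (replicates 2, 6, 7 and 8) were CD4-Cre (+/-), a transgene that is active in cells with Cd4 promoter activity. Age was not stated, the labels name no stimulation although the deposited table's name carries the word "stim", and nothing says that each sample came from a separate mouse, so a p-value here measures sample-to-sample spread that may be technical. In bulk RNA, fewer cells of a type and less RNA per cell cannot be told apart.

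The mitochondrial genome is a small circle present in many copies per cell. Both of its strands are transcribed as long precursors, and the tRNAs that lie between most of the other genes are cut out to free the mRNAs and rRNAs. All of its proteins are subunits of the respiratory chain or of ATP synthase, which are completed by subunits imported from the cytosol, and its rRNAs and tRNAs serve the ribosomes inside the organelle.

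Total counts ran from 20587482 to 26387488 per sample, and 14693 genes were tested. Levels are CPM, that is counts scaled to a common library size with TMM adjustment, and each fold change is the log2 of cKO over WT. A gene was called at an adjusted p below 0.05 (edgeR's quasi-likelihood test, Benjamini-Hochberg over all genes tested). Kdm6a, the targeted gene, was at 62.7 ± 1.59 CPM in WT (SD, n = 5) and 42.7 ± 1.48 CPM in cKO (n = 4). Its log2 fold change was -0.55 (SE 0.04, edgeR adjusted p = 2.89e-05), so its RNA was lower and not absent in the cKO samples. Cd4 was at 873 CPM in WT against 957 CPM in cKO. Of all genes tested, 7.0% were called higher and 8.82% lower in cKO, and the median log2 fold change was 0.0012.

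Of the protein-coding genes, 6 had few or no counts, and all 6 lie in a stretch that is flanked and mostly covered by annotated copies in the nuclear genome. A region of chromosome 1 (mm10, minus strand) holds 7 annotated pseudogenes that match mitochondrial positions 6390 to 11042 at 99% identity or more and lie there in the same order, with a spacing that differs by 1 base, between the copies of mt-Nd3 and mt-Nd4l. Between the pseudogenes, and so opposite most of mt-Atp8 and the tRNA genes, no nuclear sequence was read. The pairs below begin mt-Nd3, a subunit of complex I, and mt-Atp6, a subunit of ATP synthase, together with their copies Gm28438 and Gm10925. They are shown because a short read of one would also match the other. Capitals mark the only base that differs within the aligned 345 bases of mt-Nd3, T3C, counted from 1 at the gene's 5′ end with the mitochondrial base first. The 678 aligned bases of mt-Atp6 have no difference. Sequences are from the GENCODE M21 transcripts on mm10.
mt-Nd3, chrM:9459-9518 (+): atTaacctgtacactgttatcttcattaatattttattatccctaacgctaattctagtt
Gm28438, chr1:24613060-24613119 (-): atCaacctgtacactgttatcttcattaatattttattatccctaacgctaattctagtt
mt-Atp6, chrM:7927-7986 (+): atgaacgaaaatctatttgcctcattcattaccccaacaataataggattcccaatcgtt
Gm10925, chr1:24614592-24614651 (-): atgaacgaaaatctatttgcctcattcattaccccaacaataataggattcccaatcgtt

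The 5 protein-coding genes mt-Co2 and mt-Co3 (complex IV), mt-Atp8 and mt-Atp6 (ATP synthase) and mt-Nd4l (complex I) had 0 counts in all 9 samples, and all 5 lie wholly inside the copied stretch. For counting error alone, a count of 0 allows a level of up to 0.115 to 0.144 CPM, depending on the sample. This sets no limit on the RNA of these 5 genes, because the handling of reads with several matches is not given. The sixth gene wholly inside it, mt-Nd3, had 7 to 13 counts. mt-Co1 (complex IV) and mt-Nd4 (complex I), which reach out of the stretch, had at least 110565 and 35376 counts in every sample. For these members the table therefore gives no level that can be compared between genotypes or genes.

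Of all 50-base windows in mt-Co2, 100% also occurred in another annotated transcript. The share was 99.9% for mt-Co3, 99.5% for mt-Atp6, 98.8% for mt-Nd4l and 98.0% for mt-Nd3. It was 62.2% for mt-Nd4, 51.1% for mt-Co1, 8.2% for mt-Nd2, 7.6% for mt-Nd5 and 1.0% for mt-Rnr2, and 0 for mt-Nd1, mt-Nd6, mt-Cytb and mt-Rnr1. mt-Atp8 also had a share of 0, because only annotated transcripts were searched and the nearest one, Gm10925, covers its last 43 bases, fewer than a window. Of the 7 pseudogenes, 1 (Gm10222, the copy of mt-Nd4l) was in the table, also at 0 counts. The way the authors' counting treated reads with several matches is not given in the sources used here, and its part in these zeros was not tested.

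Copies elsewhere that differ at more bases did carry counts, at low numbers. Gm13341 on chromosome 2, 95.9% identical to mt-Co2, had 10 to 24 counts per sample while mt-Co2 itself had 0. Gm13340, 97.6% identical to mt-Co1 over the whole gene, had 16 to 32.

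**Figure D1:**
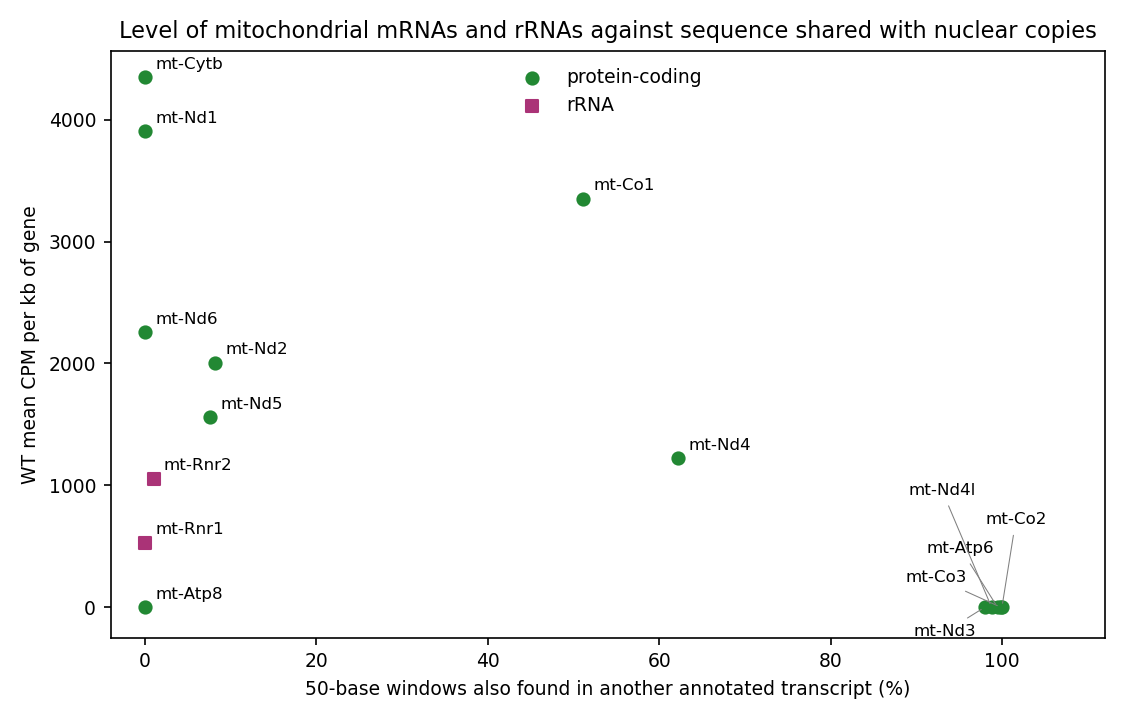
Mean level in the 5 WT samples (CPM per kb of gene, vertical) of each mitochondrial mRNA (circles) and rRNA (squares) against the percentage of its 50-base windows that also occur in another annotated transcript (horizontal). The 5 genes with 98.0% or more of their windows shared sit at or near 0, as does mt-Atp8, and the other genes, with 62.2% or fewer, sit at 530.5 CPM per kb or more.

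Among the protein-coding genes that could be read, mt-Cytb had the highest WT level per length, 4347 ± 82.8 CPM per kb (SD, n = 5). mt-Nd1 followed at 3908 ± 130, mt-Co1 at 3351 ± 48.0, mt-Nd6 at 2255 ± 37.03 and mt-Nd2 at 2006 ± 75.3 CPM per kb. mt-Nd5 was at 1561 ± 20.1 and mt-Nd4 at 1222 ± 10.1 CPM per kb. Neighbours in this order differed by more than the sum of their SDs. The libraries had passed an mRNA enrichment, so the order is not one of levels in the cell. Counts of mt-Nd6, on the minus strand, may include reads of the opposite strand, as the strand setting of the counting is not given. The order depends on the length used: divided by the windows that occur in no other annotated transcript instead of the length, mt-Co1 came first and mt-Nd4 moved from the last to the fourth place among these 7.

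In the comparison of cKO with WT, edgeR called mt-Nd5 and mt-Nd6 higher in cKO and no mitochondrial mRNA lower. Of the 13 protein-coding genes, 8 passed the filter on low counts, and 2 of these 8 were called higher and 0 lower, beside 7.0% and 8.82% of all genes tested. At an unadjusted p under 0.05, 5 were higher, as were 14.9% of all genes, and 0 lower. The median log2 fold change of the 8 was 0.12. All 8 were above 0, as were 50.4% of all genes, and 3 of the 8 had every cKO sample above every WT sample, as did 7.08% of all genes. In 0 of the 8 was every cKO sample below every WT sample, as in 8.78% of all genes. Both called genes encode subunits of complex I, the NADH dehydrogenase that feeds electrons into the respiratory chain.

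mt-Nd5 (chrM:11742-13565, plus strand) encodes a large membrane subunit of the proton-pumping arm. Its levels were 2795, 2883, 2830, 2848 and 2880 CPM in WT 1, 3, 4, 5 and 9, and 2997, 3012, 3308 and 3331 CPM in cKO 2, 6, 7 and 8. All cKO samples lay above all WT samples, and cKO 7 and 8 lay well above cKO 2 and 6. The mean was 11.1% higher in cKO (2847 ± 36.7 against 3162 ± 182 CPM, SD, n = 5 and 4), with a log2 fold change of 0.15 (SE 0.04, edgeR adjusted p = 0.0210). It was called in 19 of 21 alternative settings other than scaling to mitochondrial mRNA, which ended the call too (edgeR adjusted p = 0.247). Among the 21 the call ended when cKO 7 (edgeR adjusted p = 0.0596) or cKO 8 (0.0654) was left out.

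mt-Nd6 (chrM:13552-14070) is the one protein-coding gene on the minus strand and overlaps the last 14 bases of mt-Nd5. WT samples had 1145, 1181, 1164, 1165 and 1196 CPM, and cKO samples 1224, 1226, 1317 and 1428 CPM. The groups did not overlap, with cKO 8 the highest and cKO 2 and 6 close to the top of WT. The mean was 10.99% higher in cKO (1170 ± 19.2 against 1299 ± 96.4 CPM), with a log2 fold change of 0.15 (SE 0.04, edgeR adjusted p = 0.0420). The call did not survive the omission of most single samples: the edgeR adjusted p was 0.0594 without WT 1, 0.0699 without WT 3, 0.0812 without WT 4, 0.0764 without WT 5, 0.0619 without WT 9, 0.0918 without cKO 7 and 0.0986 without cKO 8. Without a filter on low counts it was 0.0512. The strand setting of the counting is not given, so reads of mt-Nd6 and of RNA from the opposite strand cannot be told apart.

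The other complex I genes with counts were not called. mt-Nd4 (chrM:10167-11544) was at 1681, 1697, 1672, 1670 and 1700 CPM in WT and 1701, 1761, 1885 and 1842 CPM in cKO. These groups did not overlap either, though cKO 2 lay next to WT 9, and the log2 fold change was 0.09 (SE 0.03, edgeR adjusted p = 0.0799). mt-Nd1 (chrM:2751-3707) was at 3756, 3759, 3556, 3721 and 3905 CPM in WT and 3740, 3979, 4172 and 4233 CPM in cKO, a log2 fold change of 0.11 (SE 0.04, edgeR adjusted p = 0.0963). mt-Nd2 (chrM:3914-4951) was at 2064, 2112, 1977, 2067 and 2191 CPM in WT and 2040, 2247, 2364 and 2437 CPM in cKO, a log2 fold change of 0.13 (SE 0.05, edgeR adjusted p = 0.112). In both, cKO 2 lay inside the WT range and the other cKO samples above it. Without cKO 2, mt-Nd1, mt-Nd2 and mt-Nd4 were called as well (edgeR adjusted p = 0.0273, 0.0179 and 0.0302). mt-Nd3 averaged 0.398 CPM in WT and 0.484 in cKO, too few counts for its log2 fold change of 0.29 (SE 0.24, edgeR adjusted p = 0.529) to be read.

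The complex III and IV genes were not called. mt-Cytb (chrM:14145-15288), the cytochrome b of complex III, was at 4869, 4988, 4912, 4979 and 5118 CPM in WT and 4782, 5038, 5409 and 5437 CPM in cKO. Its cKO samples fell on both sides of WT, cKO 2 below every WT sample and cKO 7 and 8 above, and the log2 fold change was 0.06 (SE 0.04, edgeR adjusted p = 0.378). mt-Co1 (chrM:5328-6872), the catalytic subunit of cytochrome c oxidase, was at 5100, 5104, 5194, 5220 and 5270 CPM in WT and 5315, 5175, 5427 and 5443 CPM in cKO. The groups overlapped through cKO 6, and the log2 fold change was 0.04 (SE 0.03, edgeR adjusted p = 0.288).

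The count of called protein-coding genes turned on single samples. It was 1 instead of 2 without any one of WT 1, 3, 4, 5 or 9, 0 without cKO 7 or cKO 8, and 5 without cKO 2. Of the 8 genes, cKO 2 was the lowest cKO sample in 7 and cKO 8 the highest in 6. Among WT samples, WT 9 was the highest in 6 and WT 1 the lowest in 4.

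**Figure D2:**
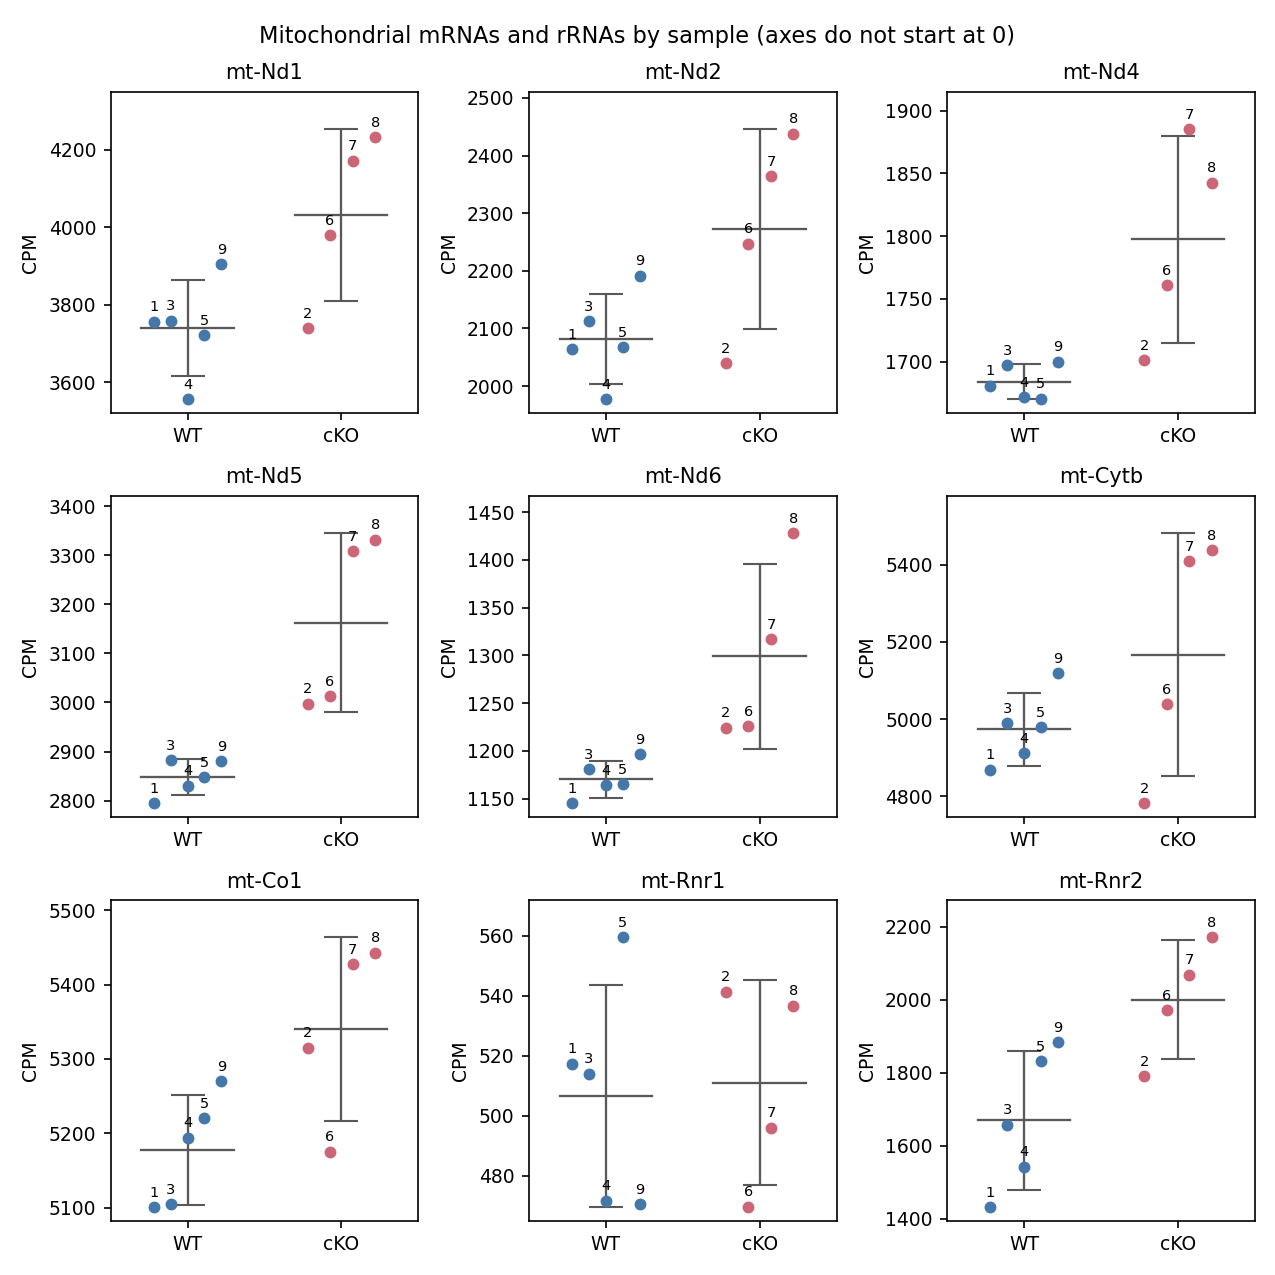
CPM of 7 mitochondrial mRNAs and both rRNAs in each WT (blue) and cKO (red) sample, numbered by replicate, with the mean and SD of each group (n = 5 and 4); the axes do not start at 0. The groups do not overlap for mt-Nd4, mt-Nd5 and mt-Nd6, and cKO 2 is the lowest cKO sample except for mt-Co1 and mt-Rnr1.

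The larger rRNA was higher in cKO and the smaller one was not. mt-Rnr2 (chrM:1094-2675), the RNA of the large mitochondrial ribosomal subunit, was at 1431, 1657, 1542, 1831 and 1883 CPM in WT and 1791, 1972, 2068 and 2171 CPM in cKO. The groups overlapped, with cKO 2 below WT 5 and WT 9. The mean was 19.9% higher in cKO (1669 ± 190 against 2000 ± 162 CPM), with a log2 fold change of 0.26 (SE 0.08, edgeR adjusted p = 0.0486). Of the 2 rRNA genes edgeR thus called 1 higher and 0 lower, beside 7.0% and 8.82% of all genes tested. At an unadjusted p under 0.05, 1 was higher, as were 14.9% of all genes, and 0 lower. It called 0 without WT 1, WT 3, WT 4, cKO 6, cKO 7 or cKO 8. There the edgeR adjusted p of mt-Rnr2 was 0.0596, 0.0875, 0.108, 0.0953, 0.105 and 0.136. Robust quasi-likelihood of edgeR gave 0.0694.

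mt-Rnr1 (chrM:70-1024), the RNA of the small subunit, was at 517, 514, 472, 559 and 470.5 CPM in WT and 541, 469.8, 496 and 537 CPM in cKO. The ranges were nearly the same, and the log2 fold change was 0.01 (SE 0.06, edgeR adjusted p = 0.911). The nominal 95% interval ran from -0.10 to 0.13. It uses a normal multiplier of the SE and so is somewhat too narrow for so few samples. The number of mt-Rnr2 counts per mt-Rnr1 count was 2.77, 3.22, 3.27, 3.27 and 4.003 in WT and 3.31, 4.20, 4.17 and 4.05 in cKO, and WT 9 and cKO 2 each lay among the samples of the other genotype. The difference between the 2 genes' changes was not tested. Both values describe rRNA that passed an mRNA enrichment, so they are not levels in the cell.

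The tRNA genes had far fewer counts, and none was called. Of 22 genes, mt-Ty, mt-Ts1, mt-Td and mt-Tk had 0 counts in all samples, and mt-Ts1, mt-Td and mt-Tk lie inside the copied stretch, as do mt-Tg (10 to 23 counts) and mt-Tr (0 to 8). The filter kept 14. edgeR called 0 of the 14, beside 7.0% of all genes called higher and 8.82% lower. DESeq2 and limma-voom also called 0, while limma-voom with sample weights called 1 higher. At an unadjusted p under 0.05 there were 2 higher (14.9% of all genes) and 0 lower. The median log2 fold change was 0.25, from -0.07 for mt-Tg to 0.55 for mt-Ts2. Of the 14, 13 were above 0, as were 50.4% of all genes, and 8 had at most 60 counts in every sample.

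The 5 tRNAs below are those with the most counts (mt-Te, mt-Tl1, mt-Tc and mt-Tp) and the one with the largest fold change (mt-Ts2), with the anticodon in capitals, located as a triplet in a loop of 7 bases closed by a stem of 5 pairs, at least 4 of them matched. mt-Te carries glutamate, mt-Tl1 leucine, mt-Tc cysteine, mt-Tp proline and mt-Ts2 serine. They are between 59 and 75 bases long in the genome. The sequences are from GENCODE M21 on mm10.
mt-Te, chrM:14071-14139 (-): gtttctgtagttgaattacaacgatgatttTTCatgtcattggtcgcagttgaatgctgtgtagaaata
mt-Tl1, chrM:2676-2750 (+): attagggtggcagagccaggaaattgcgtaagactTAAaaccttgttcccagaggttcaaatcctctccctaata
mt-Tc, chrM:5192-5257 (-): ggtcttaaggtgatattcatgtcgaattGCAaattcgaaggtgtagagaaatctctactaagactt
mt-Tp, chrM:15356-15422 (-): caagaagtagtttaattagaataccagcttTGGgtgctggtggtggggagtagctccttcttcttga
mt-Ts2, chrM:11613-11671 (+): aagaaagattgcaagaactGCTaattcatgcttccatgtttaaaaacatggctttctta

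mt-Tl1 held 31.8% of all tRNA counts, mt-Te 31.5% and mt-Tc 15.6%, and the 6 tRNAs with the most counts held 91.3%. mt-Te was at 31.4, 33.6, 34.2, 32.4 and 33.6 CPM in WT and 34.4, 35.1, 38.6 and 39.8 CPM in cKO. Its groups did not overlap, which held for 1 of the 14 tRNAs tested and for 7.08% of all genes with cKO above, and its log2 fold change was 0.16 (SE 0.05, edgeR adjusted p = 0.0594). mt-Te adjoins the 5′ end of mt-Nd6 on the minus strand with no base between them. Without cKO 2 it was called (edgeR adjusted p = 0.0357).

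mt-Ts2 was at 1.74, 0.859, 1.01, 1.46 and 1.07 CPM in WT and 2.02, 2.15, 1.44 and 1.57 CPM in cKO, from 20 to 52 counts. WT 1 lay inside the cKO range, and the log2 fold change was 0.55 (SE 0.22, edgeR adjusted p = 0.116). Without WT 1 it was called (0.0345). These 2 genes were the ones with an unadjusted p under 0.05, 0.0103 for mt-Te and 0.0299 for mt-Ts2.

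The other abundant tRNAs varied as much within a genotype as between them. mt-Tl1 was at 27.0, 30.1, 31.9, 35.4 and 44.2 CPM in WT and 26.5, 39.8, 40.9 and 39.98 CPM in cKO, and the log2 fold change was 0.12 (SE 0.15, edgeR adjusted p = 0.621). mt-Tc was at 11.05, 17.2, 15.2, 18.8 and 21.4 CPM in WT and 14.8, 19.2, 17.6 and 20.1 CPM in cKO, and the log2 fold change was 0.10 (SE 0.16, edgeR adjusted p = 0.713). mt-Tp was at 2.21, 4.21, 4.28, 4.06 and 6.68 CPM in WT and 2.45, 6.25, 7.30 and 7.29 CPM in cKO, and the log2 fold change was 0.43 (SE 0.33, edgeR adjusted p = 0.398). In each of the 6 tRNAs with the most counts, WT 1 was the lowest WT sample and cKO 2 the lowest cKO sample, and WT 9 was the highest WT sample in 5. With WT 1 and cKO 2 both left out, a choice made after the data were seen, edgeR called 5 protein-coding, 1 rRNA and 1 tRNA gene higher and 0 lower. The share of all genes called in that fit is not given here, so these counts have no baseline.

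**Figure D3:**
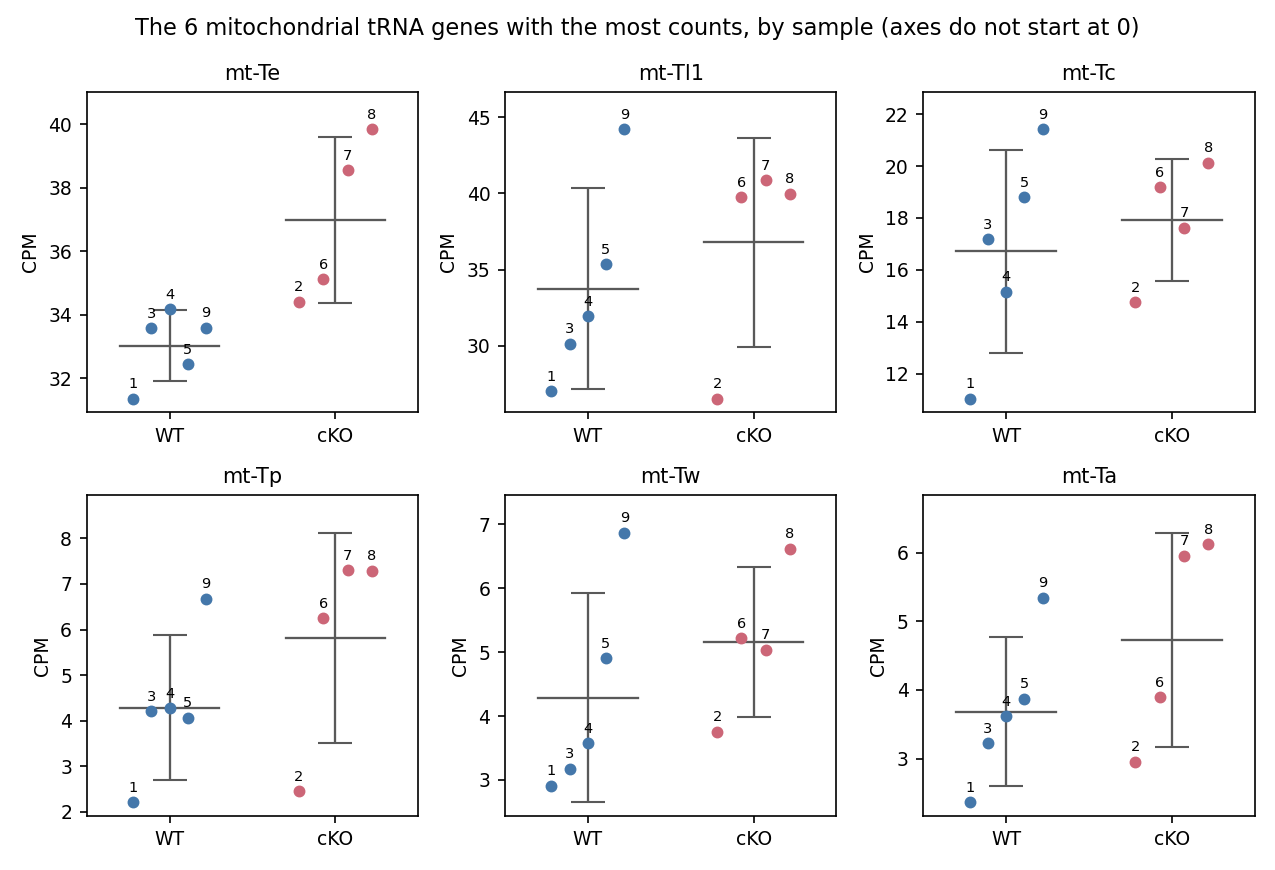
CPM of the 6 mitochondrial tRNA genes with the most counts in each WT (blue) and cKO (red) sample, numbered by replicate, with the mean and SD of each group (n = 5 and 4); the axes do not start at 0. WT 1 and cKO 2 are the lowest samples of their groups in all 6 panels.

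The remaining tested tRNAs, mt-Ti, mt-Tq, mt-Tm, mt-Th, mt-Tl2, mt-Tt and mt-Tg, had between 10 and 60 counts per sample, beside mt-Tw and mt-Ta with 61 to 180. Their edgeR adjusted p ran from 0.221 for mt-Tt to 0.946 for mt-Tq. The 4 tRNAs with counts that failed the filter, mt-Tf, mt-Tv, mt-Tn and mt-Tr, had at most 10 counts in any sample.

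**Figure D4:**
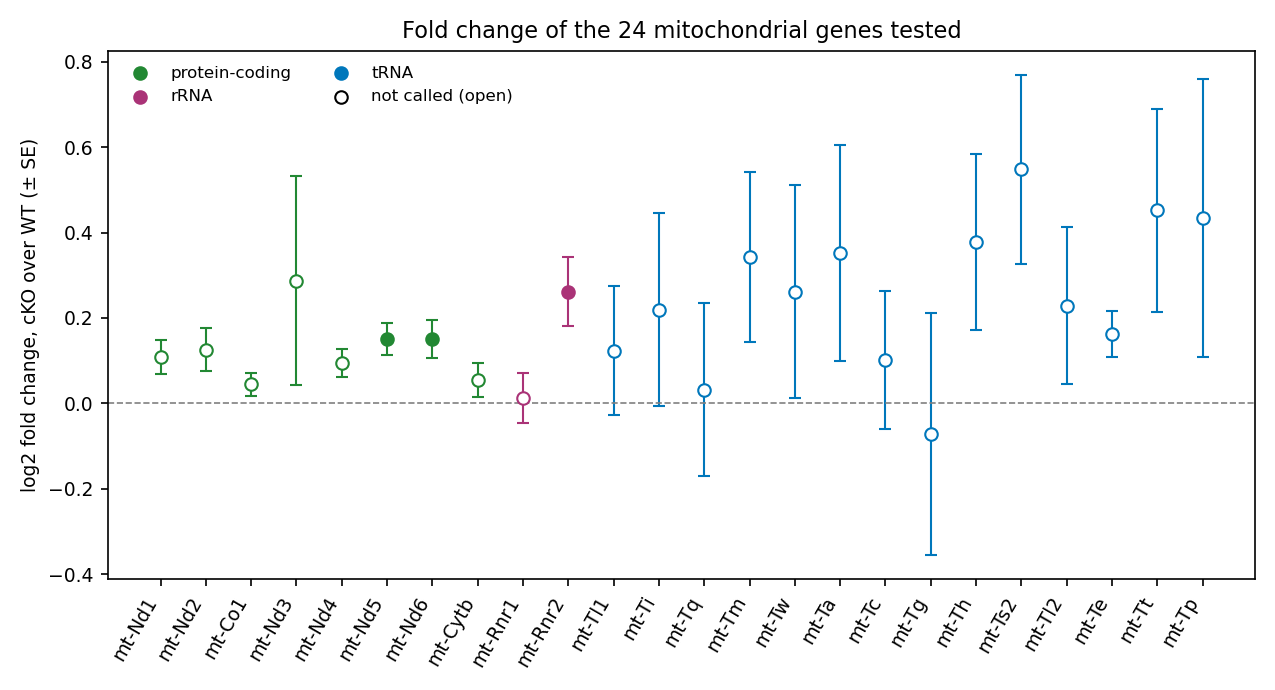
Log2 fold change (cKO over WT) with its standard error for the 24 mitochondrial genes tested, coloured by class and filled where called. mt-Nd5, mt-Nd6 and mt-Rnr2 are filled, mt-Tg alone lies below 0, and the tRNA error bars other than that of mt-Te are wider than those of the mRNAs other than mt-Nd3.

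As a share of all counts, the protein-coding genes took 2.11%, 2.1725%, 2.13%, 2.14% and 2.21% in WT and 2.18%, 2.27%, 2.42% and 2.43% in cKO. cKO 2 lay within the WT range, and the ratio of the means was 1.08 (2.15 ± 0.0406% against 2.33 ± 0.120%, SD, n = 5 and 4). The rRNA genes took 0.216 ± 0.0194% in WT and 0.253 ± 0.0169% in cKO, and the tRNA genes 0.0104 ± 0.00149% and 0.0119 ± 0.00163%. Groups overlapped in all 3 classes. The 95% Wilson intervals reach at most 0.00663 percentage points to either side for the protein-coding share, which covers counting error alone. Genes listed at 0 counts add nothing to these shares. TMM factors ran from 0.985 to 1.0008 in WT and from 1.0009 to 1.014 in cKO, so scaling by plain totals gave higher fold changes in cKO.

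With all libraries scaled to their mitochondrial mRNA counts, edgeR called 0 of the 8 protein-coding genes. This scaling divides by the sum of these same genes and so takes out any change they share. A call lost under it therefore does not bear on such a change. No change in the make-up of these counts passed the test, which does not show that there was none. mt-Nd5 made up 13.1 ± 0.146% in WT and 13.7 ± 0.192% in cKO, and mt-Nd6 5.40 ± 0.0475% and 5.63 ± 0.201%, in both with every cKO sample above every WT sample. mt-Cytb made up 22.9 ± 0.120% and 22.4 ± 0.312%, with every cKO sample below every WT sample. Non-overlap of the CPM was found for 7.08% of all genes with cKO above and 8.78% with cKO below. The percentages here are another measure, in which a larger part for some genes leaves less for the others. Those shares of all genes are therefore no direct baseline for them. mt-Co1 (23.9% and 23.2%), mt-Nd1 (17.3% and 17.5%), mt-Nd2 (9.61% and 9.84%) and mt-Nd4 (7.77% and 7.79%) overlapped. With the same scaling edgeR called 0 of the 2 rRNA and 0 of the 14 tRNA genes, and mt-Nd5 (edgeR adjusted p = 0.247), mt-Nd6 (0.310) and mt-Rnr2 (0.0869) lost their calls. That scaling moved the median of all genes to -0.09 and that of the 8 protein-coding genes to 0.03.

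Few nuclear genes that transcribe, process and translate mitochondrial RNA were called, and the shares of all genes to read them against are 7.0% higher and 8.82% lower. Of 9 transcription genes, among them the polymerase Polrmt (39.9 CPM in WT, 40.8 in cKO) and the packaging factor Tfam (102 and 100.2 CPM), edgeR called 0, as did DESeq2 and limma-voom, with 0 at an unadjusted p under 0.05. Of 23 genes of RNA processing and stability, 2 were called higher and 0 lower (6 and 1 at an unadjusted p under 0.05, 5 and 1 by DESeq2, 3 and 0 by limma-voom). One was Grsf1, an RNA-binding protein of mitochondrial RNA granules, at 92.8 ± 3.77 CPM in WT and 104 ± 2.77 in cKO (log2 fold change 0.16, SE 0.04, edgeR adjusted p = 0.0167, and 0.0510 without cKO 8). Lrpprc, which stabilises mitochondrial mRNAs, was at 140 and 149 CPM and was not called (edgeR adjusted p = 0.193).

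Of 23 genes that modify mitochondrial tRNA and rRNA, 1 was called higher and 0 lower. This was Osgepl1, an enzyme of tRNA modification, at 19.3 ± 1.25 CPM in WT against 24.6 ± 2.51 CPM in cKO (log2 fold change 0.35, SE 0.07, edgeR adjusted p = 0.0104), called in all 21 alternative settings. Of 22 aminoacyl-tRNA synthetases and of 13 translation factors, 1 each was called higher and 0 lower. Of 17 genes of mitochondrial DNA replication, 1 was called higher and 1 lower. Of 12 regulators of mitochondrial biogenesis, edgeR called 0 (2 higher and 0 lower at an unadjusted p under 0.05), limma-voom 0, and DESeq2 1 higher. Myc, one of the 12, was at 351 ± 48.0 CPM in WT against 433 ± 55.1 CPM in cKO (edgeR adjusted p = 0.0647). Of 18 genes of mitochondrial dynamics, 1 was called lower: Fkbp8, an outer-membrane protein, at 220 CPM in WT against 196 CPM in cKO (log2 fold change -0.16, SE 0.04, edgeR adjusted p = 0.0138).

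For the nuclear subunits of the same complexes the medians lay below 0, and the difference between the genomes was not tested. The median log2 fold change of the 36 nuclear complex I subunits was -0.08, with 31 of 36 below 0, beside 0.14 for the 6 mitochondrial subunits tested and 0.13 without mt-Nd3, whose counts are few. For complex III it was -0.03 over 9 nuclear genes beside 0.06 for mt-Cytb, and for complex IV -0.07 over 12 beside 0.04 for mt-Co1. With libraries scaled to mitochondrial mRNA, mt-Cytb (-0.04) and mt-Co1 (-0.04) were below 0. That scaling lowered the median of all genes as well. The nuclear medians here are from the TMM fit, so these 2 values cannot be set against them. The nuclear complexes II and V had medians of -0.03 (4 genes) and -0.06 (15 genes). Of these 76 nuclear genes, with the inhibitory factor Atpif1 counted among them, 81.6% had a log2 fold change below 0, against 49.6% of all genes.

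edgeR called 5 of 36 nuclear complex I subunits lower and 0 higher, beside 8.82% and 7.0% of all genes. At an unadjusted p under 0.05, 13 were lower and 1 higher. DESeq2 called 6 lower, limma-voom 5 and limma-voom with sample weights 9, each with 0 higher. The accessory subunit Ndufb7 was at 69.8 ± 1.07 CPM in WT against 60.01 ± 2.31 CPM in cKO (log2 fold change -0.22, SE 0.04, edgeR adjusted p = 0.00325). Ndufa8, another accessory subunit, was at 69.0 ± 1.56 and 60.5 ± 1.37 CPM (log2 fold change -0.19, SE 0.03, edgeR adjusted p = 0.00487). Both had every cKO sample below every WT sample and were called in all 21 alternative settings. The count of 5 was 9 without WT 1, 3 without WT 3, WT 9 or cKO 6, and 2 without cKO 8.

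For ATP synthase, 4 of 15 nuclear genes were called lower and 1 higher, beside 8.82% and 7.0% of all genes. The 1 called higher was Atpif1, the inhibitory factor of ATP synthase, listed here with its subunits. It was at 63.4 ± 1.38 CPM in WT against 74.0 ± 1.29 CPM in cKO (log2 fold change 0.22, SE 0.03, edgeR adjusted p = 0.00193), called in all 21 alternative settings. The 4 became 1 without WT 3, WT 4, WT 9, cKO 6 or cKO 7, 2 without WT 5 and 0 without cKO 8. In complex IV 1 gene was called lower, Cox5b (edgeR adjusted p = 0.0484), which lost its call when any single sample other than WT 1 was left out (edgeR adjusted p up to 0.134). In complexes II and III edgeR, DESeq2 and limma-voom called 0, with 0 and 1 lower at an unadjusted p under 0.05. Over all the nuclear lists of mitochondrial expression and respiration, 7 of 212 genes were called higher and 12 lower, both smaller shares than the 7.0% and 8.82% of all genes. The 212 join 2 unlike sets. Of the 76 genes of the respiratory chain and ATP synthase, 1 was called higher, the inhibitory factor Atpif1. There were 10 called lower, a larger share than the 8.82%. Of the other 136 genes, 6 were called higher and 2 lower. The 7 became 14 without WT 1, 4 without WT 4, WT 9 or cKO 7, and 2 without cKO 8. The 12 became 6 without WT 3 or WT 4, 5 without WT 9 or cKO 6, and 3 without cKO 8. The split of 7 to 12 was 14 to 5 with plain library totals and 13 to 5 with upper-quartile scaling.

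**Figure D5:**
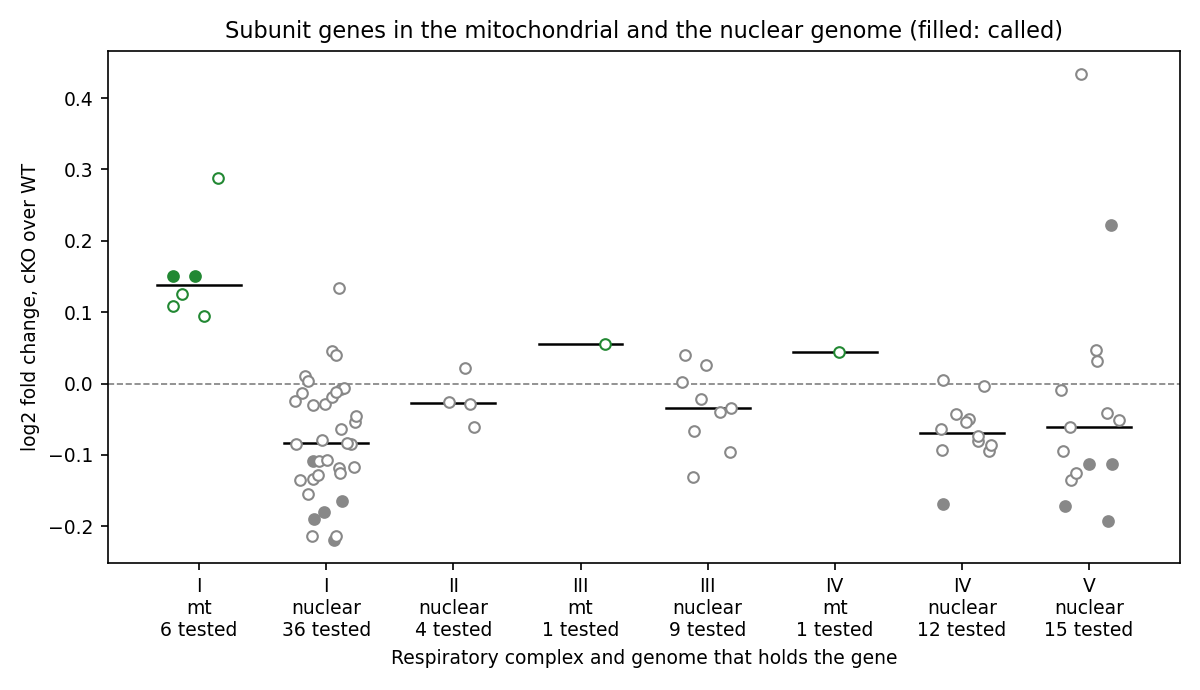
Log2 fold change (cKO over WT) of each tested subunit gene, by respiratory complex and by the genome that holds the gene (green for mitochondrial, grey for nuclear), with lines at the medians and filled points where called. The inhibitory factor Atpif1 is plotted with the nuclear subunits of complex V. The mitochondrial complex I genes lie above 0, with a median of 0.14, and 31 of the 36 nuclear complex I genes lie below it.

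RNA that mRNA enrichment should remove, and RNA of other cells, was read beside these values. Of 20 nuclear genes listed for RNA without a poly(A) tail, 12 were tested. Of these, 1 was called higher and 0 lower, beside 7.0% and 8.82% of all genes. It was Rpph1, the RNA of nuclear RNase P, at 3.91 and 6.79 CPM. Leaving out WT 3, WT 4, WT 5, cKO 6, cKO 7 or cKO 8 ended that call (edgeR adjusted p up to 0.0976). The list's summed level ran from 25.6 to 31.0 CPM in WT, and in cKO from 26.4 to 34.1 CPM, and Rn7s1, Rn7s2, Rny1, Rny3 and Hist2h2aa1 were at 0. The histone genes Hist1h1c (5.37 and 5.18 CPM) and Hist1h1e (3.98 and 3.69 CPM) of that list were not called, nor was Malat1 (472 and 470.1 CPM), a polyadenylated RNA retained in the nucleus. The part of carry-over in the rRNA and tRNA values was not tested.

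The CD4 T cell markers, 9 of 9 present, summed to 3256 to 3470 CPM in WT and 3219 to 3421 CPM in cKO. Within that sum edgeR called 2 of the 9 higher and 4 lower in cKO, beside 7.0% and 8.82% of all genes tested. Among those called were Cd5 (274 and 321 CPM) and Lat (235 and 182 CPM). CD8 T cell markers (2 of 2 present) summed to 11.9 to 15.1 and 15.1 to 19.1 CPM, with Cd8b1 called higher (edgeR adjusted p = 0.0296), and natural killer markers (4 of 4) to 7.10 to 19.8 and 13.1 to 49.1 CPM. Plasma cell markers (5 of 5), mostly Xbp1, summed to 266 to 334 and 147 to 223 CPM. The plasma cell sums were lower in every cKO sample than in any WT sample, through Xbp1 and Prdm1 (11.6 and 6.59 CPM). Sdc1 averaged 2.31 and 3.42 CPM and Jchain was below 1 CPM. The markers of this list thus did not move together, and their sum cannot be read as a level of plasma cells. The CD8 sums were higher in every cKO sample. Macrophage markers (5 of 5) were at 16.0 to 20.3 and 17.7 to 21.5 CPM and stromal and vessel markers (5 of 5), nearly all Pecam1, at 96.9 to 119 and 84.4 to 106 CPM. B cell (6 of 6), dendritic (5 of 5), erythroid (6 of 6) and gamma-delta T cell markers (3 of 4) stayed at or below 5.78 CPM in every sample. The neutrophil markers S100a8, S100a9, Ly6g and Elane and the erythroid markers Hba-a2 and Hbb-bs were at 0. The part of other cells in the mitochondrial values was not tested.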

How the data were processed

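The authors deposited 1 table of raw counts (whole, unnormalized read numbers for each gene) for 9 samples. Per the labels' protocols, stranded libraries were made with a KAPA kit after mRNA enrichment of RNA from a Direct-zol kit. The submitters' processing notes name bcl2fastq 2.17 and mm10. Aligner, counter, strand setting, annotation and the handling of reads with several matches were not given in the sources used here. Symbols were found for 37607 of 39017 IDs.

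edgeR 4.0.16 (R 4.3.3) was fitted to all 9 samples (TMM, filterByExpr, quasi-likelihood F test, two-sided, Benjamini-Hochberg over 14693 genes). Standard errors are the log2 fold change divided by the square root of F. The biological coefficient of variation was 8.04%. Chi-square per gene between replicates of a group was 3.47 to 21.9, so none agreed within sampling noise. Depth was 20587482 to 26387488 counts, and the limit of 3 counts and the Wilson intervals cover counting error alone, as the libraries had no molecular identifiers to count molecules by. Copies were searched with blastn 2.17.0 and by exact 50-base windows in the GENCODE M21 transcripts, an annotation that the authors may not have used.

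The members and the gene lists were chosen with earlier results of these data known. Named were all mitochondrial genes, Kdm6a, Cd4, of each nuclear list up to 4 called genes with the smallest p (or up to 2 where none was called), and of each marker list the 2 most abundant. Lrpprc, Polrmt, Tfam and some markers at 0 were added after their values were seen, and not every gene that the rule allows is printed. The alternatives were other scalings, filters, tools (DESeq2 1.42.0, limma 3.58.1, sva 3.50.0) and thresholds, and leaving out each sample.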

Additional observations from a re-analysis of the deposited data

Results flagged for a closer look

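Among 76 checks of members and their summaries within a group, 2 found a sample far from the others of its group, and chance flags about 1 in 20 groups. The mt-Tl1 level in cKO 2 was 26.5 CPM, while the other cKO samples had 39.8 to 40.9 CPM. The number of mt-Rnr2 counts per mt-Rnr1 count in cKO 2 was 3.31, while the other cKO samples had 4.05 to 4.20.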

How the results depend on the processing

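No paired analysis was possible because each replicate number from 1 to 9 occurs once over both groups. The count of protein-coding genes called higher, 2, became 4 with upper-quartile scaling, 0 with scaling to mitochondrial mRNA, 1 without a count filter, 5 with voom sample weights, 5 without WT 1 and cKO 2, 0 at an adjusted p below 0.01 and 4 below 0.1, and ran from 0 to 5 with single samples left out. The rRNA count, 1, became 0 with scaling to mitochondrial mRNA, robust quasi-likelihood or a threshold of 0.01, and ran from 0 to 1 with single samples left out. The tRNA count, 0, became 1 with upper-quartile scaling, total counts, voom sample weights, a threshold of 0.1 or WT 1 and cKO 2 left out, 3 with 1 surrogate variable, and ran from 0 to 1 with single samples left out. Nuclear genes called higher, 7, became 13 with upper-quartile scaling, 14 with total counts, 12 with DESeq2, 11 with voom sample weights, 12 without WT 1 and cKO 2, 1 at 0.01 and 14 at 0.1, and ran from 2 to 14 with single samples left out (4 without WT 4, WT 9 or cKO 7). Nuclear genes called lower, 12, became 5 with upper-quartile scaling or total counts, 7 without a count filter or with 1 surrogate variable, 2 at 0.01 and 22 at 0.1, and ran from 3 to 18 with single samples left out. No mitochondrial gene was called lower in any of these settings. The number called among all genes tested differed between settings too, and is not printed for each. Reversed log2 fold changes were all of genes not called. mt-Rnr1 was -0.075 with scaling to mitochondrial mRNA, -0.025 with 1 surrogate variable, -0.0096 without WT 1 and cKO 2, and from -0.016 to 0.051 with single samples left out. mt-Tq was -0.052 with scaling to mitochondrial mRNA and -0.014 with voom sample weights, and with that scaling mt-Co1 was -0.044 and mt-Cytb -0.036. With single samples left out, mt-Tq ran from -0.078 to 0.17, mt-Tc from -0.020 to 0.21, mt-Tg from -0.28 to 0.055, Hist1h1c from -0.13 to 0.044, Hist1h1e from -0.22 to 0.0017 and Malat1 from -0.048 to 0.047. Malat1, at -0.0051 with the reported settings, was 0.013 with upper-quartile scaling, 0.019 with total counts, 7.7e-05 with voom, 0.031 with sample weights and 0.042 without WT 1 and cKO 2. The ratios of the shares of all counts and of the protein-coding counts moved by less than 1 SD. The causes were not tested. Of the 14 tRNAs tested, 8 had at most 60 counts per sample; mt-Tl1 (SE 0.15) and mt-Te (SE 0.05) had similar counts.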
